A study of Homo sapiens with 26 samples.

Results

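The genes described here are 10 that encode mTORC1, mTORC2 and the TSC complex: RPTOR, MTOR, MLST8, RICTOR, AKT1S1, DEPTOR, MAPKAP1, PRR5, TSC1 and TSC2. They were matched by symbol among the 57773 genes of the deposited count table, and all 10 had enough counts to be tested in every comparison. The set was built around RPTOR, which was selected on its own measured count, lower after 5-azacytidine than after DMSO at 72 h. The RPTOR values in that contrast are therefore a description with no test. The other 9 genes were taken for their place in the complexes, with earlier results of these data known.

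mTOR is a serine/threonine kinase that couples nutrient, growth factor and energy signals to cell growth. In mTORC1 it works with RPTOR (Raptor), the scaffold that brings substrates to the kinase, and mTORC1 promotes protein synthesis and restrains autophagy. In mTORC2 it works with RICTOR and MAPKAP1 (mSIN1), which direct the kinase to AKT and related kinases. The TSC complex holds RHEB, the small GTPase that activates mTORC1, in its inactive state. In erythroid precursors, mTORC1 signalling is known to tie iron and nutrient supply to growth and haemoglobin production.

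The cells were TF-1, an established human erythroleukemia line grown under the cytokine GM-CSF. Clones F4 and A12 carried TET2 -/- (KO) and clones A7 and C4 TET2 +/+ (WT); TET2 oxidises 5-methylcytosine in DNA. Cells received 200 nM 5-azacytidine (Aza), a cytidine analogue that traps and depletes DNA methyltransferases, or its solvent DMSO on 3 consecutive days. RNA was taken ahead of the treatment and then 72 h and 264 h from the first dose. In batch 1, KO and WT had 2 libraries each, 1 per clone, before treatment, for Aza at both times and for DMSO at 264 h. WT also had 2 in DMSO at 72 h. KO had 1 there, because the F4 library failed the submitters' sequencing quality control. Batch 2 held KO libraries only, all labelled DMSO: 1 per clone at 72 h, at 264 h and at pre-treatment. With both batches KO in DMSO had 3 libraries at 72 h and 4 at 264 h, and the only passing 72 h DMSO library of F4 came from batch 2. Each genotype rests on 2 clones of the same line, so differences between KO and WT are differences between 2 and 2 clones. The labels name no separate cultures within a clone.

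The 25 passing libraries held 24992192 to 40187322 counts, and 3 counts, the floor used for detection, were worth 0.0747 to 0.120 CPM (counts divided by the library's total in megacounts, with totals scaled by the TMM method). This floor covers counting error only. TET2 itself was at 24.9 to 46.4 CPM in the 15 KO libraries and 22.5 to 29.96 CPM in the 10 WT libraries. The labels do not give the edited exon, so a count over the whole gene does not check the genotype labels. Of 14 erythroid and progenitor markers, 12 were above 1 CPM in every library, and the list summed to 2933 to 6970 CPM. TFRC alone ran from 1439 to 5112 CPM. Of these 14, CSF2RA was at 0 CPM in every library. The counts cannot tell an absent transcript from reads that were not assigned to the gene. Of 6 lymphoid markers, 1 (CD79A) was above 1 CPM in every library and MS4A1 was at 0 CPM in all, while the list summed to 3.07 to 65.1 CPM. CD3D was the highest of them, with 0.529 to 61.4 CPM and a median of 15.9 CPM. Of 9 fibroblast and epithelial markers, 2 (KRT8 and KRT18) were above 1 CPM in every library and the other 7 were below 1 CPM in all. The 2 WT libraries taken before treatment went against their clone labels. Their deviations from the group mean over 3000 variable genes correlated at -0.52 to -0.48 with those of the same-labelled clone in later WT libraries, where later libraries correlated with each other at 0.45 to 0.52. Calls that changed when they were left out or their labels exchanged are stated.

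RefSeq promoter sequences (GRCh38.p14, 250 bases before to 50 after the start of the gene) were matched for 7 of the 10 genes by symbol. MLST8, AKT1S1 and DEPTOR had no entry. The promoters shown are those of RPTOR, MAPKAP1 and MTOR, 3 genes that were lower in Aza at 72 h, and of RICTOR, whose genomic span is near that of MTOR and which did not pass the test there. CpG dinucleotides, the sites that DNA methyltransferases and TET2 act on, are in capitals, each run reads 5′ to 3′ on the strand of the gene, and no methylation was measured in these files.
RPTOR (chr17:80544588-80544887, plus strand): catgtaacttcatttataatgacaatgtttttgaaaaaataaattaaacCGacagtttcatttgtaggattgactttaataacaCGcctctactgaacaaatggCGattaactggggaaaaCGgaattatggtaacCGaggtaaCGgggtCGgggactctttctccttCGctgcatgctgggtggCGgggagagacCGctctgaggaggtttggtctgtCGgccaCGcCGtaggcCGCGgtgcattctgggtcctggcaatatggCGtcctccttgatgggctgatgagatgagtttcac
MAPKAP1 (chr9:125707159-125707458, minus strand): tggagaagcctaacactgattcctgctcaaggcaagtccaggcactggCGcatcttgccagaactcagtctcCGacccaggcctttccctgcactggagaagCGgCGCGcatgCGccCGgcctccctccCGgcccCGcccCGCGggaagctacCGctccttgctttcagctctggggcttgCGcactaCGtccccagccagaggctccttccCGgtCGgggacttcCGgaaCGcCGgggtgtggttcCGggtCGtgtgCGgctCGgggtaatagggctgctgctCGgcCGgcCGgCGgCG
MTOR (chr1:11262502-11262801, minus strand): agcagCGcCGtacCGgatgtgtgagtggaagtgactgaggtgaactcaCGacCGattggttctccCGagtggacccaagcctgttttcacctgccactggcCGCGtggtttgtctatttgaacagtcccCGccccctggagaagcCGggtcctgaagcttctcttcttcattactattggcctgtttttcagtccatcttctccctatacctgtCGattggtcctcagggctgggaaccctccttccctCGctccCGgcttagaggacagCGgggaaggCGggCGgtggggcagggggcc
RICTOR (chr5:39074350-39074649, minus strand): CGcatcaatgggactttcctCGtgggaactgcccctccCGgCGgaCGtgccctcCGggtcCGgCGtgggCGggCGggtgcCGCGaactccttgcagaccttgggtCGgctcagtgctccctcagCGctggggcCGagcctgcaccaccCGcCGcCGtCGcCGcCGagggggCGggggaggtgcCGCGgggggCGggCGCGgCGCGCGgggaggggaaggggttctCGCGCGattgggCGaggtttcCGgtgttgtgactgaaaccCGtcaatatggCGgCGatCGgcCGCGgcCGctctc

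The RPTOR and MTOR promoters each held 16 CpGs, more than 52.5% of the 35116 promoters in the table. MAPKAP1 had 28 CpGs, more than 73.8% of them, and RICTOR 42, more than 94.2%. GC content was 48.0% for RPTOR, 59.3% for MTOR, 68.3% for MAPKAP1 and 74.0% for RICTOR. Of 6 motifs searched on both strands, TATAAA matched once in RPTOR and in 11.5% of all promoters. CCAAT matched 3 times in MTOR, once in RICTOR and in 34.6% of all promoters. GGGCGG matched 2 times in MTOR, 3 times in RICTOR, once in MAPKAP1 and in 45.0% of all promoters. Overlapping matches, present in RICTOR, were counted once. The palindrome bound by NRF1 matched once in MAPKAP1 and in 1.24% of all promoters, and CACGTG (7.26% of all) and the palindrome bound by CREB (1.85%) in none of the 4. These matches describe the letters in the window and no binding.

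All 10 genes were expressed in untreated and vehicle-treated cells. Levels between genes were compared per length, as RPKM (CPM divided by the exon length in kilobases), over the 17 libraries without Aza. MLST8, a small WD40 subunit of both complexes, had the highest pooled mean at 13.6 ± 2.5 RPKM (SD, n = 17 libraries of 4 clones). Next came AKT1S1 (PRAS40), a mTORC1 subunit and inhibitor, at 13.1 ± 3.6 RPKM, and MAPKAP1 at 12.8 ± 0.82 RPKM. MTOR had 9.58 ± 2.57 RPKM, DEPTOR, an inhibitor in both complexes, 9.40 ± 1.77 RPKM, and RPTOR 7.26 ± 0.70 RPKM. PRR5 (Protor-1), a mTORC2 subunit, had 6.27 ± 0.95 RPKM. TSC2, the GTPase-activating subunit of the TSC complex, had 4.14 ± 0.44 RPKM, RICTOR 3.44 ± 0.70 RPKM and TSC1, which stabilises TSC2, 1.36 ± 0.20 RPKM. The first 3 genes, and MTOR and DEPTOR, did not differ from their neighbours in this order beyond the SD. The order pools genotypes and batches and did not hold within them. In WT, MTOR was highest at 12.9 ± 0.45 RPKM, with MLST8 at 11.3 ± 0.52 RPKM (SD, n = 6). In KO of batch 1, MAPKAP1 had 12.7, MLST8 12.3 and MTOR 8.11 RPKM (n = 5). In batch 2, AKT1S1 had 17.1, MLST8 16.8 and MTOR 7.49 RPKM (n = 6). Across the same libraries MAPKAP1 varied least, with an SD of 6.43% of its mean, and AKT1S1 most, with 27.8%.

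**Figure D1:**
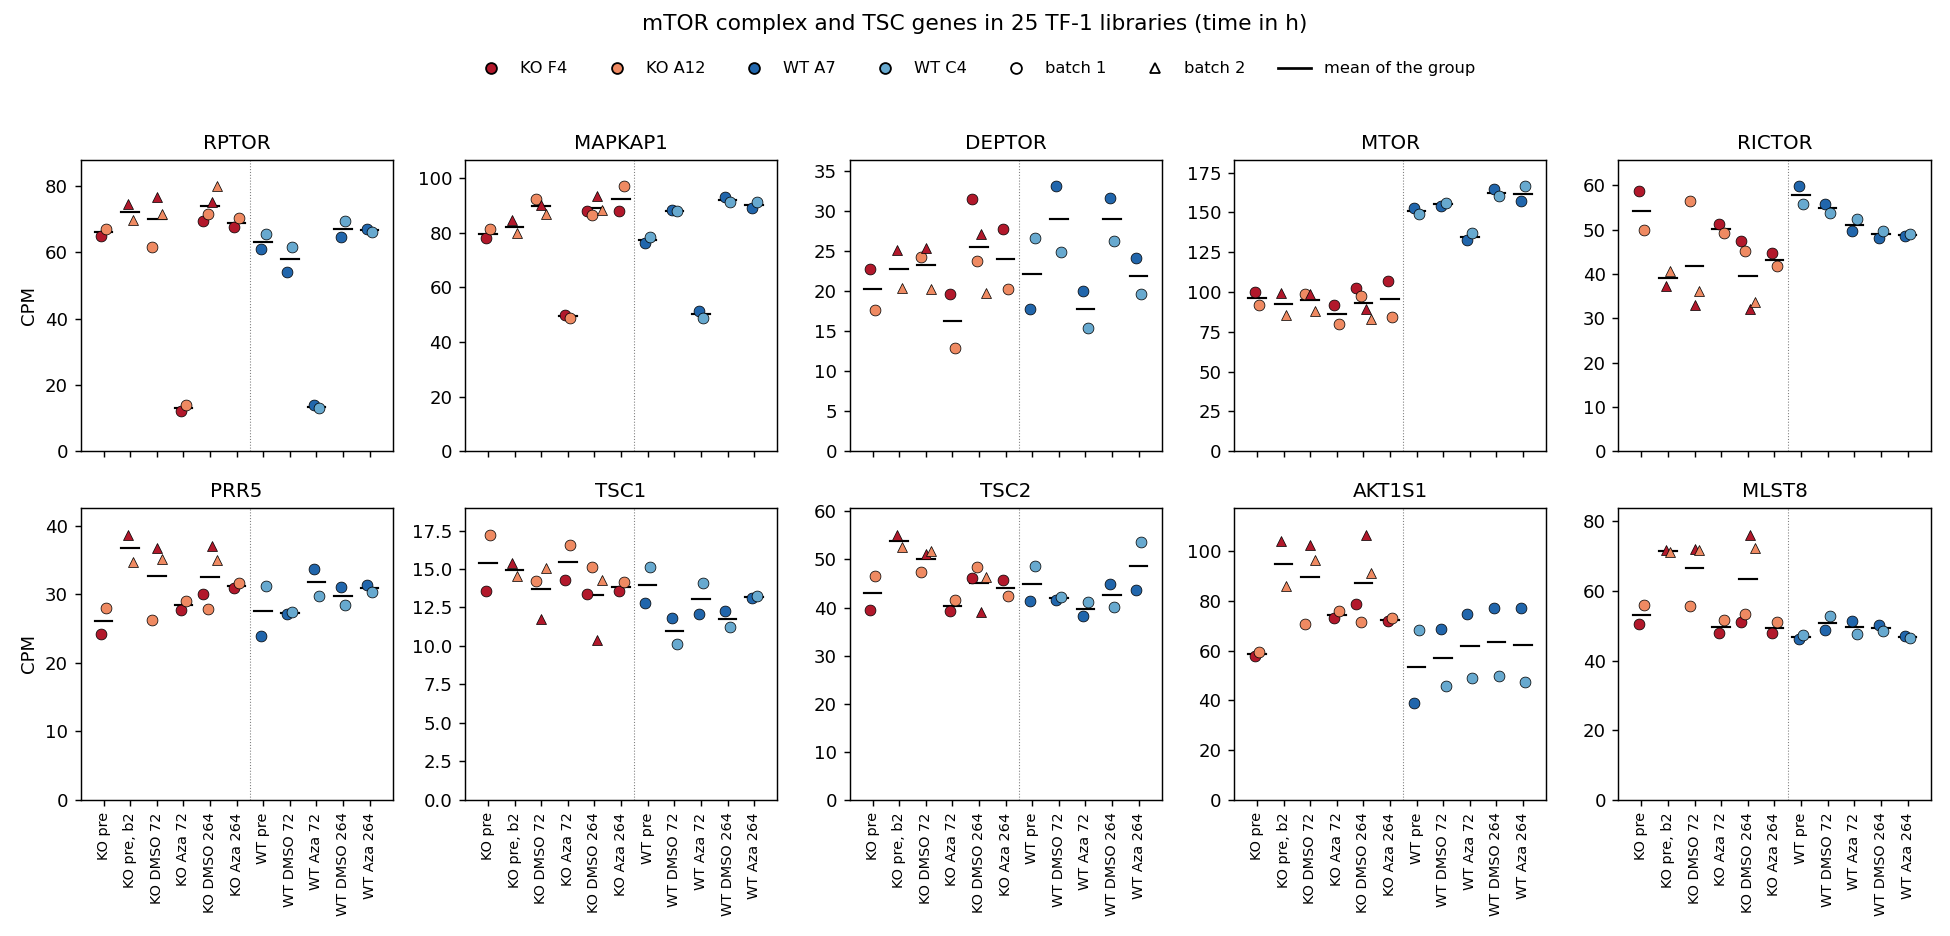
Level of each gene (y axis, CPM from 0) in 25 TF-1 libraries by group (x axis: genotype, treatment and time in h, b2 for batch 2). Points are libraries, coloured by clone and shaped by batch, and bars are group means. RPTOR and MAPKAP1 are low in all 4 Aza libraries at 72 h, and MTOR is lower in every KO library than in any WT library.

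RPTOR was more than 4-fold lower after 3 doses of Aza than after DMSO in both genotypes, and near its DMSO level at 264 h. In DMSO at 72 h the KO libraries had 61.5 CPM (A12, batch 1), 76.8 CPM (F4, batch 2) and 71.7 CPM (A12, batch 2). In Aza at 72 h they had 12.1 CPM (F4) and 13.9 CPM (A12). The WT libraries went from 54.1 CPM (A7) and 61.7 CPM (C4) in DMSO to 13.9 CPM (A7) and 13.0 CPM (C4) in Aza. All 4 Aza libraries at 72 h were thus low and close together, far from every other library, which ran from 54.1 to 79.9 CPM. The log2 difference, Aza minus DMSO, was -2.29 ± 0.09 (SE) in KO, 4.89-fold lower, and -2.10 ± 0.08 in WT, 4.28-fold lower. Within single clones the 5 pairs of Aza and DMSO libraries differed by -2.66 to -1.95. The Aza library of A12 enters 2 of these pairs, and 2 of the 3 KO pairs set a batch 1 Aza library against a batch 2 DMSO library. Per length, RPTOR in Aza at 72 h was at 1.41 ± 0.10 RPKM (SD, n = 4), beside 1.44 ± 0.19 RPKM for TSC1. These are bulk RNA libraries, in which fewer cells of a type and less RNA per cell cannot be told apart. RPTOR (ENSG00000141564.9, hg19 chr17:78518619-78940171, plus strand) shares 2.8% of its exon bases with 3 antisense genes, and without strand in the counting these reads cannot be told apart.

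The other subunits did not follow as a set. Of the 9 other genes, 4 were lower in KO at 72 h (MAPKAP1, DEPTOR, MTOR and TSC2) and 0 higher, where 8.47% of 18391 tested genes were called lower and 11.6% higher. In WT, 3 were lower (MAPKAP1, DEPTOR and MTOR) and 0 higher, where 9.04% of all genes were called lower and 9.26% higher. A call here is an adjusted p under 0.05 by edgeR's quasi-likelihood test with Benjamini-Hochberg adjustment over all genes tested. The median log2 difference of the 9 genes was -0.09 in KO and -0.08 in WT, beside 0.01 and 0.00 over all genes. The model pairs libraries by clone. Without that pairing, 1 of the 9 genes stayed called in KO and 1 in WT.

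Of the subunits found in both complexes, MTOR was slightly lower and MLST8 was not called. MTOR, the kinase itself, had 91.9 CPM (F4) and 80.1 CPM (A12) in KO in Aza at 72 h, beside 98.9, 99.0 and 87.9 CPM in the 3 DMSO libraries. WT had 132 and 137 CPM in Aza beside 154 and 156 CPM in DMSO. The ranges overlapped in KO, where the F4 Aza library lay above 1 DMSO library of A12, and not in WT. MTOR fell by 0.31 ± 0.07 on the log2 scale in KO (edgeR adjusted p = 0.00153) and by 0.20 ± 0.06 in WT (edgeR adjusted p = 0.0234). The 3 pairs of the same clone within batch 1 differed by -0.30 (A12), -0.22 (A7) and -0.19 (C4), and the 2 pairs across batches by -0.11 (F4) and -0.13 (A12), where batch 2 minus batch 1 was -0.20 for MTOR. The KO call was lost without the clone pairing (-0.26, edgeR adjusted p = 0.138) and without clone A12 (-0.33, edgeR adjusted p = 0.160). With the library that failed quality control it turned to 0.09 (edgeR adjusted p = 0.839). The WT call was lost without the pairing (-0.20, edgeR adjusted p = 0.252), with the failed library (-0.21, edgeR adjusted p = 0.743), without clone A7 or C4, and when any 1 of the 4 WT libraries at 72 h was left out (-0.22 to -0.20, edgeR adjusted p 0.0965 to 0.146). MLST8 had 48.0 and 51.6 CPM in KO in Aza, beside 55.7 CPM in the batch 1 DMSO library and 72.2 and 71.9 CPM in batch 2. With batch in the model its difference was -0.09 ± 0.07 in KO and -0.04 ± 0.07 in WT (edgeR adjusted p = 0.425 and 0.799).

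DEPTOR, which binds and inhibits mTOR in both complexes, was lower after Aza. KO had 19.7 CPM (F4) and 12.9 CPM (A12) in Aza, beside 25.4 CPM for F4 and 24.2 and 20.2 CPM for A12 in DMSO. WT had 20.0 CPM (A7) and 15.5 CPM (C4) in Aza, beside 33.1 and 25.0 CPM in DMSO. The groups did not overlap in either genotype, and F4 and A7 stood above A12 and C4 in both treatments. DEPTOR fell by 0.78 ± 0.17 on the log2 scale in KO (edgeR adjusted p = 0.00397) and by 0.71 ± 0.16 in WT (edgeR adjusted p = 0.00536). The calls rest on few libraries. They were kept in 12 of 18 alternatives in KO and 12 of 17 in WT. The alternative without the WT pre-treatment libraries was among those that kept them. In KO the call was lost with batch 1 alone (-0.83, edgeR adjusted p = 0.0692), without the Aza library of A12 (-0.68, edgeR adjusted p = 0.0838), without the batch 1 DMSO library of A12 (-0.75, edgeR adjusted p = 0.0537), and without all libraries of A12 (-0.61, edgeR adjusted p = 0.631) or of F4 (-0.93, edgeR adjusted p = 0.132). In WT it was lost without the Aza library of C4 (-0.58, edgeR adjusted p = 0.121) or the DMSO library of A7 (-0.54, edgeR adjusted p = 0.137), and without all libraries of KO clone F4 (-0.71, edgeR adjusted p = 0.0893) or A12 (-0.71, edgeR adjusted p = 0.150), which share the estimate of the spread. Without the clone pairing it was lost in both (edgeR adjusted p = 0.170 in KO and 0.113 in WT). The DEPTOR exons share 9.6% of their bases with the antisense gene DEPTOR-AS1.

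AKT1S1, the mTORC1-bound inhibitor, did not pass the test. In Aza at 72 h it had 73.0 and 76.0 CPM in KO and 74.7 CPM (A7) and 49.1 CPM (C4) in WT. In DMSO it had 70.6 CPM in the batch 1 KO library, 102 and 96.4 CPM in the batch 2 KO libraries, and 68.6 CPM (A7) and 45.7 CPM (C4) in WT. The difference between clones A7 and C4 was larger than any difference with treatment in WT. The log2 difference was 0.01 ± 0.29 in KO and 0.12 ± 0.28 in WT (edgeR adjusted p = 0.982 and 0.842). AKT1S1 stayed uncalled in all 18 alternatives in KO and all 17 in WT, also without the WT pre-treatment libraries. Before treatment the order of the WT labels was the reverse, with 38.8 CPM for A7 and 68.2 CPM for C4, the libraries that go against their clone labels. DEPTOR reversed in the same pair, with 17.7 CPM for A7 and 26.7 CPM for C4.

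Among the mTORC2 subunits, MAPKAP1 fell in every clone and RICTOR and PRR5 were not called. MAPKAP1 had 50.02 CPM (F4) and 48.8 CPM (A12) in KO in Aza at 72 h and 51.4 CPM (A7) and 48.9 CPM (C4) in WT. In DMSO it had 92.4, 90.2 and 86.9 CPM in KO and 88.2 and 88.0 CPM in WT. The 4 Aza libraries lay within 48.8 to 51.4 CPM, below all 21 other libraries, which started at 76.2 CPM. MAPKAP1 fell by 0.86 ± 0.07 on the log2 scale in KO (1.81-fold lower, edgeR adjusted p = 3.37e-09) and by 0.81 ± 0.07 in WT (1.76-fold lower, edgeR adjusted p = 3.21e-09), in 5 of 5 pairs of the same clone. No other gene shared its exons. RICTOR, the scaffold of mTORC2, had 51.3 and 49.1 CPM in KO and 49.6 and 52.4 CPM in WT in Aza. In DMSO it had 56.3 CPM in the batch 1 KO library, 32.99 and 36.3 CPM in the batch 2 KO libraries, and 55.8 and 53.8 CPM in WT. Its difference was -0.09 ± 0.09 in KO and -0.10 ± 0.08 in WT (edgeR adjusted p = 0.544 and 0.451). PRR5 ran from 27.7 to 33.7 CPM in Aza and from 26.2 to 36.8 CPM in DMSO, with differences of 0.05 ± 0.11 in KO and 0.22 ± 0.11 in WT (edgeR adjusted p = 0.813 and 0.165). With only the groups compared it was called higher in WT (0.22, edgeR adjusted p = 0.0341). PRR5 shares 19.0% of its exon bases with PRR5-ARHGAP8 and ARHGAP8, which stayed at or below 0.150 and 0.457 CPM.

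In the TSC complex, TSC2 was lower in KO at a value near the threshold and TSC1 was not called. TSC2 had 39.3 and 41.6 CPM in KO in Aza, beside 47.5, 51.1 and 51.7 CPM in DMSO, with no overlap. WT had 38.2 and 41.2 CPM in Aza, beside 41.6 and 42.1 CPM in DMSO. The log2 difference was -0.33 ± 0.11 in KO (edgeR adjusted p = 0.0359) and -0.08 ± 0.10 in WT (edgeR adjusted p = 0.673), and the difference between the genotypes, -0.25 ± 0.15, did not pass the test (edgeR adjusted p = 1.0). The KO call was lost in 10 of 18 alternatives, over which the value ran from -0.64 to -0.11. Leaving out either Aza library of KO, either batch 2 DMSO library, or either KO clone was enough. Without the clone pairing it was -0.34 (edgeR adjusted p = 0.0847). TSC1 had 14.3 and 16.6 CPM in KO and 12.1 and 14.1 CPM in WT in Aza, beside 10.2 to 15.1 CPM in the DMSO libraries. The A12 Aza library stood above all 5 DMSO libraries and the other 3 Aza libraries within their range. Within WT both Aza libraries stood above both DMSO libraries. The 5 pairs of the same clone, some of them across batches, differed by 0.03 to 0.47. The TSC1 difference was 0.12 ± 0.14 in KO and 0.25 ± 0.13 in WT (edgeR adjusted p = 0.580 and 0.221). In the test of the Aza difference in KO minus that in WT at 72 h, 0 of the 9 genes were called, 0 had an unadjusted p under 0.05, DESeq2 called 0, and 0.0% of all genes were called by edgeR. For RPTOR that difference of differences was -0.19 ± 0.12, given with no test.

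**Figure D2:**
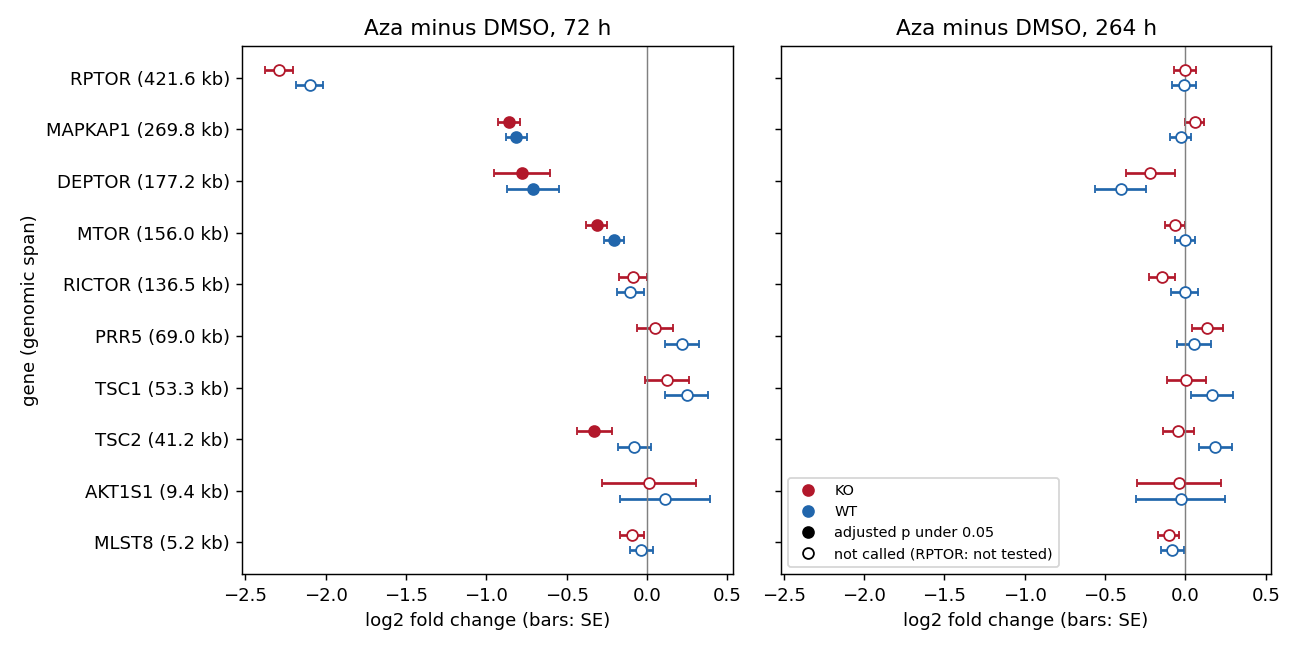
Log2 difference between Aza and DMSO (x axis; bars are SE) for the 10 genes, ordered by genomic span (y axis), in KO and WT at 72 h (left) and 264 h (right). Filled points are called by edgeR, and RPTOR is shown with no test. At 72 h RPTOR lies at -2.29 and -2.10 and MAPKAP1 at -0.86 and -0.81, and at 264 h all 10 genes lie between -0.40 and 0.18 with none called.

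At 264 h the subunits stood near their vehicle levels. RPTOR had 67.8 and 70.3 CPM in KO in Aza, beside 69.5, 71.5, 75.3 and 79.9 CPM in DMSO, and 67.01 and 66.3 CPM in WT, beside 64.6 and 69.6 CPM. Its log2 difference was -0.00 ± 0.07 in KO and -0.01 ± 0.07 in WT (edgeR adjusted p = 1.0 and 0.993). MAPKAP1 had 87.9 and 97.0 CPM in KO in Aza, beside 86.6 to 93.5 CPM in DMSO, and 89.2 and 91.4 CPM in WT, beside 93.0 and 91.3 CPM. Of the 10 genes, 0 were called in KO (0.0979% of all genes were) and 0 in WT (0.5% of all genes were). At an unadjusted p under 0.05 there were 0 in KO and 1 in WT, and DESeq2 called 0 in both. The 1 gene was DEPTOR, with 24.2 and 19.7 CPM in Aza beside 31.7 and 26.3 CPM in DMSO, a log2 difference of -0.40 ± 0.16 (edgeR adjusted p = 0.488). It was called with the WT pre-treatment libraries left out or their labels exchanged (-0.40 and -0.41). In the difference between the genotypes at 264 h, edgeR and DESeq2 called 0 of 10 genes and 0 had an unadjusted p under 0.05, where 0.0% of all genes were called.

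Set directly against Aza at 72 h, whose libraries also enter the 72 h comparison above, Aza at 264 h had higher MAPKAP1 in both genotypes. The difference was 0.90 ± 0.07 in KO and 0.85 ± 0.07 in WT (edgeR adjusted p = 3.98e-10 and 1.25e-09). RPTOR differed by 2.41 ± 0.08 in KO and 2.30 ± 0.08 in WT, given with no test. DEPTOR rose by 0.57 ± 0.17 in KO (edgeR adjusted p = 0.0207), a call that was lost in 9 of 17 alternatives, the clone pairing left out among them (edgeR adjusted p = 0.213). In WT it differed by 0.31 ± 0.16 (edgeR adjusted p = 0.221). MTOR rose by 0.26 ± 0.06 in WT (edgeR adjusted p = 0.00325), a call that was lost in 6 of 17 alternatives, the clone pairing left out among them (edgeR adjusted p = 0.108). In KO it differed by 0.15 ± 0.06 (edgeR adjusted p = 0.100). In all, 2 of the 9 genes other than RPTOR were called higher in each genotype, where 9.79% of all genes were in KO and 10.3% in WT. In DMSO alone, 264 h against 72 h, 0 of the 9 genes other than RPTOR were called in KO or WT by edgeR or DESeq2, where 4.68% and 0.00544% of all genes were. At an unadjusted p under 0.05 there was 1 of the 9 in KO, RICTOR (-0.16 ± 0.07), and 0 in WT. RPTOR, whose 72 h DMSO libraries the choice of genes used, differed by 0.12 ± 0.06 in KO and 0.21 ± 0.08 in WT, given with no test.

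MTOR was the member that separated the genotypes. Over all conditions it ran from 80.1 to 107 CPM in KO and from 132 to 166 CPM in WT, so that no KO library reached a WT library. Within batch 1, KO minus WT was -0.64 ± 0.09 on the log2 scale before treatment, -0.65 ± 0.09 after Aza at 72 h, -0.69 ± 0.07 after DMSO at 264 h and -0.75 ± 0.12 after Aza at 264 h. By edgeR with 2 clones against 2, only the DMSO comparison at 264 h passed (edgeR adjusted p = 0.0457, 1.61-fold lower), where 0.208% of all genes were called. In the other 3 conditions 0 of 10 genes were called by edgeR, beside 0.0543% of all genes before treatment, 0.19% after Aza at 72 h and 0.0488% after Aza at 264 h, and MTOR alone had an unadjusted p under 0.05. The other adjusted p-values were 0.0615, 0.0585 and 0.100 by edgeR, while DESeq2 called MTOR in all 4 conditions. The DMSO call was lost when either WT library was left out (-0.71 to -0.67, edgeR adjusted p 0.161 and 0.245). The before-treatment value uses both WT pre-treatment libraries, which had 153 and 149 CPM, so exchanging their labels leaves it unchanged. Of the other 9 genes, 0 were called in any of the 4 conditions by edgeR or DESeq2, and 0 had an unadjusted p under 0.05. Their log2 differences ran from -0.17 to 0.29.

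MTOR (ENSG00000198793.8, hg19 chr1:11166592-11322564, minus strand) lies on distal 1p, and its neighbours showed the same difference. Genes within 1 Mb had a median KO minus WT difference of -0.61 before treatment (33 genes), -0.63 after Aza at 72 h (32 genes), -0.52 after DMSO at 264 h (31 genes) and -0.62 after Aza at 264 h (31 genes). Before treatment 31 of 33 were below 0. Among the nearest expressed coding genes, SRM, which makes spermidine, was at -0.62 and EXOSC10, of the RNA exosome, at -0.59 before treatment. Over the other coding genes of the first 20 Mb of chromosome 1 the medians were -0.59 (159 genes), -0.57 (158), -0.55 (156) and -0.54 (158) in the same order, where the median over all tested genes was 0.00 in each condition. The MTOR difference was slightly below the regional median in all 4 conditions. The part of the region in the MTOR difference was not tested. For Aza against DMSO at 72 h, genes within 1 Mb had a median of 0.00 in KO and -0.03 in WT (35 genes). In KO 5 of them were called lower and 6 higher, where 8.47% and 11.6% of all genes were. In WT 5 were lower and 4 higher, where 9.04% and 9.26% of all genes were. The part of the region in the Aza difference of MTOR was not tested either.

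**Figure D3:**
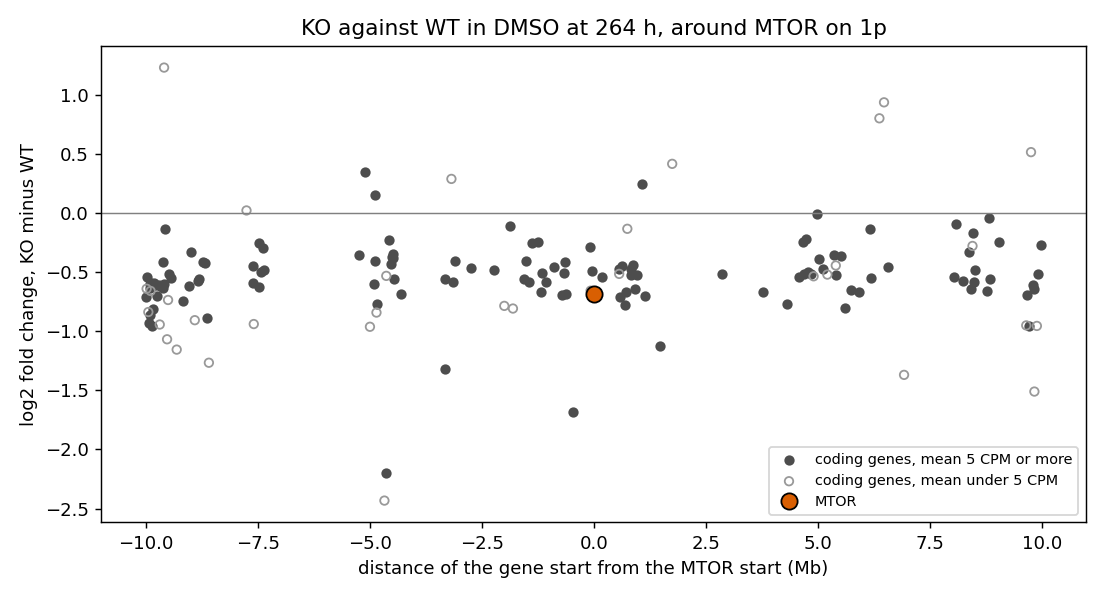
Log2 difference, KO minus WT in DMSO at 264 h (y axis), of coding genes against the distance of their start from that of MTOR (x axis, Mb). Filled points have a mean of 5 CPM or more and open points less. MTOR lies at -0.69 among neighbours that are nearly all below 0.

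RPTOR's nearest coding neighbours were not called at 72 h, while the few counts of an antisense gene overlapping its 3′ end were lower. Within 1 Mb, 65 genes were tested and their median log2 difference at 72 h was 0.05 in KO and 0.03 in WT. In KO 7 of these 65 were called lower and 6 higher, where 8.47% and 11.6% of all genes were. In WT 8 of these were lower and 4 higher, where 9.04% and 9.26% of all genes were. The nearest named coding genes were NPTX1, a neuronal pentraxin, at 1.77 ± 0.70 in KO (edgeR adjusted p = 0.0781), ENDOV, an endonuclease, at 0.36 ± 0.20 (edgeR adjusted p = 0.223) and CHMP6, an ESCRT-III subunit, at -0.14 ± 0.12 (edgeR adjusted p = 0.449). In WT, CHMP6 was at -0.31 ± 0.11 (edgeR adjusted p = 0.0525). NPTX1 was near the floor of 3 counts, with means of 0.137 CPM in DMSO and 0.388 CPM in Aza in KO. Its value is therefore uncertain. The antisense gene, ENSG00000261924, overlaps the 3′ end of RPTOR and had the lowest value of the 65 genes in both genotypes. Its level was 0.402 ± 0.079 CPM in DMSO (SD, n = 3) and 0.0197 ± 0.0279 CPM in Aza (SD, n = 2) in KO, and 0.474 ± 0.086 and 0.0396 ± 0.0561 CPM in WT (SD, n = 2 each). The mean Aza levels are under the floor of 3 counts. This gene shares 133 exon bases with RPTOR, and no strand was set in the counting. Reads of the 2 genes there cannot be told apart, so its values are a description with no test. It is among the genes counted as lower above.

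Members with a longer genomic span, end minus start in the deposited table, had lower values at 72 h. The spans were 421.6 kb for RPTOR, 269.8 kb for MAPKAP1, 177.2 kb for DEPTOR, 156.0 kb for MTOR, 136.5 kb for RICTOR, 69.0 kb for PRR5, 53.3 kb for TSC1, 41.2 kb for TSC2, 9.4 kb for AKT1S1 and 5.2 kb for MLST8. The 4 genes with the longest spans were the 4 with the lowest values in WT, in the order of their span. In KO the same held but for TSC2, which at -0.33 was just below MTOR. RICTOR, next to MTOR in span, was at -0.09 and -0.10. Spearman's rho between span and log2 difference was -0.66 in KO and -0.81 in WT over the 10 genes, and -0.53 and -0.73 over the 9 without RPTOR. These are descriptions over few genes, measured in the same libraries.

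Over all tested genes the class medians also stepped down with span. The median log2 difference in KO was 0.05 for the 9864 genes with a span under 25 kb, -0.13 for 1726 genes of 100 to 200 kb, -0.26 for 518 genes of 200 to 300 kb, -0.37 for 327 genes of 300 to 500 kb, and -0.42 for 177 genes over 500 kb. In WT the same classes had medians of 0.05, -0.13, -0.29, -0.38 and -0.40. The share called lower in KO rose from 3.27% under 25 kb to 23.8%, 37.6% and 40.4% in the next 3 of these classes and was 32.8% over 500 kb, and in WT it was 41.3% at 300 to 500 kb and 35.0% over 500 kb. Gene by gene the relation was weak over all 18391 tested genes, with rho of -0.04 in KO and -0.09 in WT. Over 13408 coding genes rho was -0.30 in KO and -0.31 in WT. Over the 7207 coding genes with a mean of at least 20 CPM in the libraries without Aza, a limit chosen after seeing the values, rho was -0.45 in both genotypes. In DMSO alone, 264 h against 72 h, rho over those genes was 0.03 in KO and 0.11 in WT, and for Aza against DMSO at 264 h it was -0.22 in KO and 0.01 in WT.

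RPTOR, MAPKAP1 and DEPTOR lay below the middle of their span classes. RPTOR was 1.92 below the median of its 300 to 500 kb class in KO and 1.72 below it in WT, with 2 and 3 of 327 genes lower. Among the 121 coding genes of that class with at least 20 CPM, whose medians were -0.50 and -0.51, it was the lowest in both genotypes. RPTOR was selected on its low value in this contrast, so its place in the class is a description with no test. Of the 3 genes just above and the 3 just below RPTOR in span, SIPA1L1 (420.8 kb), which regulates a Ras-like GTPase, was the only one with a called difference, -0.64 ± 0.11 in KO and -0.54 ± 0.11 in WT (edgeR adjusted p = 0.000226 and 0.000941). The other 5 (TRDN, GABBR2, HYDIN, EDA and RARB) had means of 0.203 to 1.25 CPM in the libraries without Aza, so a change of theirs was hardly detectable. MAPKAP1 was 0.60 and 0.53 below the median of its class, with 37 of 518 genes lower in each genotype. DEPTOR was 0.65 and 0.58 below its class, with 78 and 95 of 1726 genes lower. MTOR and RICTOR, in the same class as DEPTOR, differed from its median by -0.18 and 0.04 in KO and by -0.07 and 0.03 in WT. The part of span in these differences was not tested.

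**Figure D4:**
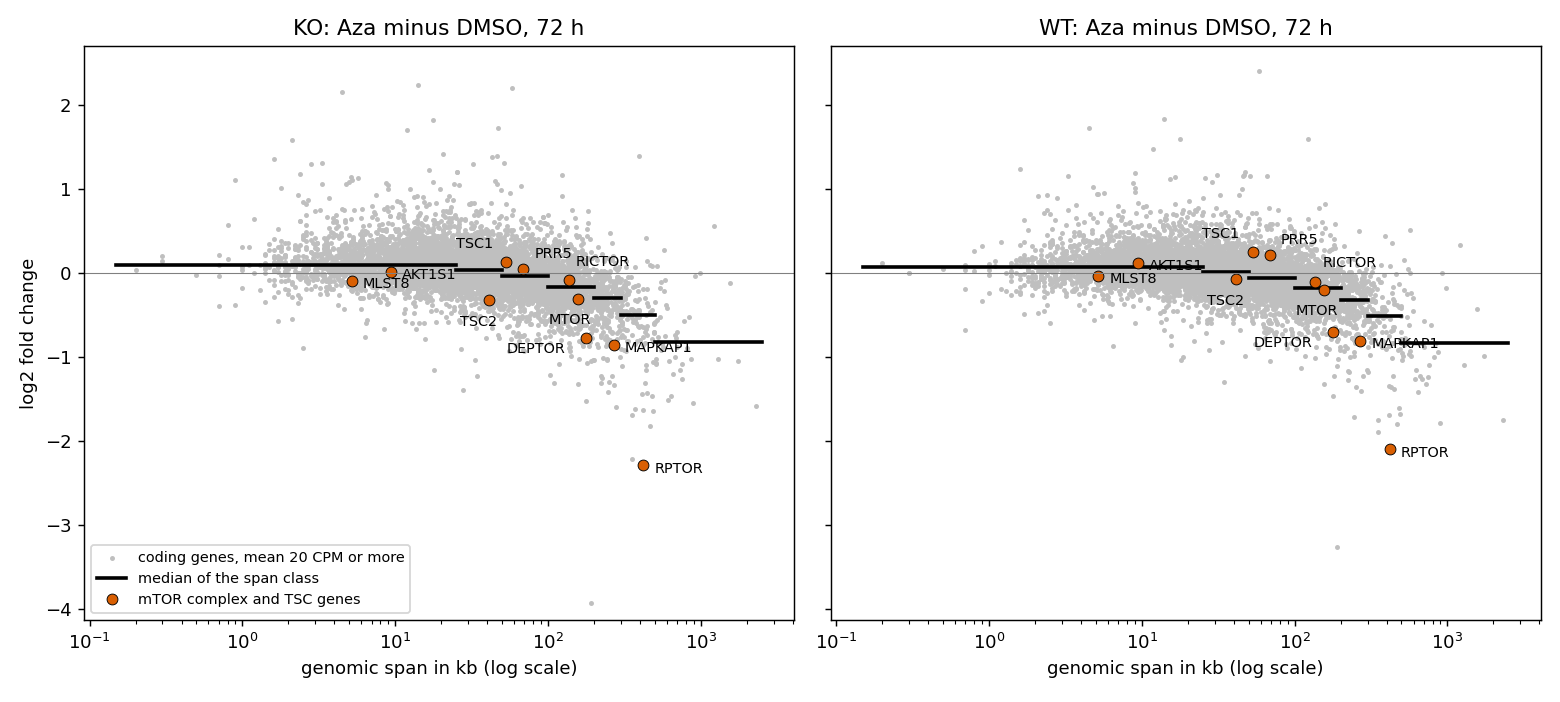
Log2 difference between Aza and DMSO at 72 h (y axis) against genomic span in kb (x axis, log scale) in KO (left) and WT (right). Grey points are 7207 coding genes with a mean of at least 20 CPM, black bars the median of each span class, and orange points the 10 genes (TSC1 is below that level). The medians step down from 0.10 and 0.07 under 25 kb to -0.50 and -0.51 at 300 to 500 kb, and RPTOR lies below its class in both.

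Genes whose levels followed RPTOR most closely over the 25 libraries were also long. Among 10595 genes with a mean of at least 5 CPM, Pearson's r of log2 CPM was highest for CUX1 (0.986, span 468.3 kb), TBC1D22A (0.986, 412.8 kb), EHMT1 (0.985, 251.0 kb), MAD1L1 (0.983, 417.4 kb), TBCD (0.983, 190.8 kb) and ANKRD11 (0.983, 222.9 kb). Their log2 differences at 72 h in KO ran from -1.82 for CUX1, a homeobox transcription factor, to -1.05 for TBCD, a tubulin cofactor. The lowest r were for BTK (-0.969), NOSTRIN (-0.965) and MDM1 (-0.961). The 4 Aza libraries at 72 h set these values: over the other 21 libraries r for the first 6 was 0.29 to 0.83. MAPKAP1 had an r of 0.959 with RPTOR over 25 libraries and 0.20 over 21. RICTOR had -0.32 over 25 libraries and -0.86 over 21, where its level and that of RPTOR both differed between the batches.

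The batches differed in 4 of the 9 genes other than RPTOR. In KO, batch 2 minus batch 1 was 0.46 ± 0.05 for MLST8, 0.37 ± 0.08 for PRR5, -0.20 ± 0.05 for MTOR and -0.58 ± 0.07 for RICTOR (edgeR adjusted p = 7.19e-07, 0.00119, 0.00273 and 4.19e-07). RPTOR differed by 0.19 ± 0.06, given with no test. Of all genes, 30.5% were called between the batches. AKT1S1 had the largest uncalled value, 0.42 ± 0.21. All Aza libraries are from batch 1, and the only passing 72 h DMSO library of F4 from batch 2, so for F4 the batch and the treatment can be told apart only through the batch term of the model. With batch 1 alone, 2 of the 9 genes other than RPTOR were called in KO at 72 h in place of 4.

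Around the complexes, mTOR pathway genes moved in both directions at 72 h. A list of 108 further genes in 9 roles was drawn up with earlier results of these data known, and 103 of them were tested (CASTOR2 was not matched, and DDIT4L, PRKAA2, IRS1 and SGK2 were too low). In KO 26 were called higher and 14 lower, and in WT 23 and 15. The shares of all genes called were 20.1% and 18.3% for both directions together. Shares were larger in some classes of coding genes with at least 20 CPM. In KO 23.2% of those under 25 kb were called higher, and 37.9% of those of 100 to 200 kb lower. The counts depended on the model and the libraries: both directions together, the 40 of KO became 22 without the clone pairing, 24 with batch 1 alone, 22 with only the groups compared, 18 with the failed library, 25 without the Aza library of A12, and 15 and 3 without clones F4 and A12. The 38 of WT became 20 without the pairing, 11 with the failed library, 17 without clone A7 or C4 and 15 to 21 when any 1 of the 4 WT libraries at 72 h was left out. The median of the list was 0.06 in KO and 0.05 in WT, beside 0.01 and 0.00 for all genes. At 264 h 0 of the 103 were called in either genotype by edgeR or DESeq2, with 9 in KO and 7 in WT at an unadjusted p under 0.05.

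Upstream of mTORC1, the RHEB, RAG and Ragulator genes had 5 higher and 1 lower of 15 in KO and 4 and 1 in WT. For this and each further role, 11.6% of all genes were called higher and 8.47% lower in KO. In WT these shares were 9.26% and 9.04%. RHEBL1, a RHEB-like GTPase, rose by 0.91 ± 0.21 in KO and 0.69 ± 0.20 in WT, and FNIP2, a partner of folliculin, fell by 0.34 ± 0.09 and 0.26 ± 0.09. RHEB itself was at -0.01 ± 0.09 and -0.05 ± 0.08 (edgeR adjusted p = 0.942 and 0.758). Of the 12 tested nutrient and stress sensors, 4 were higher and 1 lower in each genotype. DDIT4 (REDD1), which inhibits mTORC1 under stress, rose by 1.59 ± 0.30 in KO and 0.92 ± 0.29 in WT (edgeR adjusted p = 0.00275 and 0.0490), and SESN3, a sestrin, fell by 0.35 ± 0.09 and 0.29 ± 0.09. DDIT4 was at 28.9 ± 4.0 CPM in KO in Aza (SD, n = 2), beside 14.9 ± 1.4 CPM in DMSO (SD, n = 3). These means pool the batches and give a smaller rise than the model value, which includes the batch term. The part of that term was not tested. The Aza difference of DDIT4 in KO minus that in WT was not called. Of 12 GATOR and KICSTOR genes, 1 was higher in KO, and 1 was higher and 2 lower in WT. NPRL2, a GATOR1 subunit, rose by 0.37 ± 0.09 and 0.34 ± 0.09, and DEPDC5, another, fell by 0.36 ± 0.10 in WT. TBC1D7, the third subunit of the TSC complex, rose by 0.41 ± 0.10 in KO and 0.31 ± 0.09 in WT (edgeR adjusted p = 0.00384 and 0.0197). It belongs to the 5 assembly and further subunits, of which 1 was called higher in KO and 2 in WT. Of 13 tested PI3K and AKT genes, 1 was higher and 4 lower in each genotype. Among them PIK3CD, a PI3K catalytic subunit, rose by 0.44 ± 0.12 and 0.38 ± 0.11, and PIK3CB, another, fell by 0.48 ± 0.08 and 0.52 ± 0.08.

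Downstream, the mTORC2 substrates had 3 higher and 3 lower of 8 tested in KO and 3 and 2 in WT. Beside each role here, 11.6% of all genes were called higher and 8.47% lower in KO, and 9.26% and 9.04% in WT. NDRG1, a target of SGK kinases, rose by 1.39 ± 0.15 in KO and 1.19 ± 0.14 in WT (edgeR adjusted p = 2.26e-07 and 9.90e-07). PRKCA, a protein kinase C with a span of 508.1 kb, fell by 1.08 ± 0.10 and 0.96 ± 0.09 (edgeR adjusted p = 2.02e-08 and 7.18e-08). Of 15 mTORC1 substrates and translation genes, 3 were higher and 2 lower in KO and 2 and 2 in WT. PDCD4, a translation inhibitor, rose by 0.45 ± 0.09 in KO, MAF1, a repressor of RNA polymerase III, rose by 0.21 ± 0.07 in WT, and GRB10, an adaptor, fell by 0.30 ± 0.06 in KO and 0.27 ± 0.06 in WT. Of 14 autophagy and lysosome genes, 3 were higher and 2 lower in KO and 4 and 2 in WT. UVRAG, of the Beclin complex, with a span of 328.0 kb, fell by 0.67 ± 0.09 and 0.64 ± 0.09. ATG13, of the ULK complex, rose by 0.41 ± 0.08 in KO, and MITF, a transcription factor of the TFEB family, rose by 0.73 ± 0.21 in WT. Of 9 genes of the ATF4 serine and amino acid arm, 5 were higher and 1 lower in KO and 2 and 1 in WT. ASNS, asparagine synthetase, rose by 0.74 ± 0.21 in KO, SLC3A2, an amino acid transporter chain, rose by 0.57 ± 0.06 in WT, and PSPH, of serine synthesis, fell by 0.45 ± 0.10 and 0.38 ± 0.09. In the KO minus WT difference of the Aza response at 72 h, 0 of the 103 genes were called by edgeR or DESeq2, and 2 had an unadjusted p under 0.05. Pathway genes given for 1 genotype only had the largest called change of their role there. This naming shows no difference between the genotypes.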

How the data were processed

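mRNA libraries of 25 passing TF-1 samples were compared in 11 groups taken from the labels. The deposited table gives raw read counts over GENCODE exons of each gene, made by the authors with featureCounts 1.6.2 in paired-end mode, per the file headers. No strand option is set in that command, while the labels' protocols name a stranded kit. STAR 2.6.1d, cutadapt, FastQC, DESeq2 and the hg19 build are named in the submitters' processing notes. Symbols were matched for 51996 gene IDs in a current name table and for 342 in GENCODE release 29, and 5435 IDs stayed unnamed.

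TMM sizes from edgeR 4.0.16 (R 4.3.3) gave CPM, RPKM and, with a prior count of 2, log2 CPM. Genes were filtered with filterByExpr and tested by edgeR's quasi-likelihood test with Benjamini-Hochberg adjustment at 0.05. A shared model held group, clone and batch, and KO was compared with WT in batch 1 for each condition. Clone labels pair the samples because a clone is the same cells. Same-clone deviations over 3000 variable genes correlated at 0.45 to 0.58 in KO and 0.45 to 0.52 in WT after treatment, but at -0.52 to -0.48 between WT before and after treatment. The model was checked on simulated counts. Alternatives were other scaling, no filter, DESeq2 1.42.0, other designs and leaving out libraries.

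The 10 genes, the 108 pathway genes and the marker lists were chosen with earlier results of these data known. Named genes were all 10, the called gene with the largest rise and fall of each pathway role, the 6 genes most and 3 least like RPTOR, and the nearest genes by span and position. RHEB was added after its values were seen.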

Additional observations from a re-analysis of the deposited data

How the results depend on the processing

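MAPKAP1 kept its direction and its call at 72 h in all 18 alternatives in KO (-0.95 to -0.79) and all 17 in WT (-0.87 to -0.77). RPTOR, described with no test, stayed between -2.58 and -2.09 in KO and between -2.25 and -1.96 in WT. The counts of called genes other than RPTOR rested on the model, and the cause was not tested. At 72 h in KO the count was 4, and it was 1 with no replicate block (the clone pairing left out), 2 with batch 1 only and 2 with the failed library. In WT at 72 h it was 3, and 1 with no replicate block, 2 with the failed library and 4 with only the groups compared (PRR5, higher). For Aza at 264 h against Aza at 72 h it was 2 in KO, 1 with no replicate block or with the failed library, and 3 (RICTOR, lower) with only the groups compared, without the WT pre-treatment libraries or with their labels exchanged. In WT it was 2, and 1 with no replicate block or with the failed library, 3 with no filter or batch 1 only, and 4 with only the groups compared, without the WT pre-treatment libraries, or with their labels exchanged. That exchange was chosen after seeing the data. The 0 of WT at 264 h became 1 (DEPTOR) with no filter, with only the groups compared, without the WT pre-treatment libraries and with their labels exchanged. In DMSO over time, no gene other than RPTOR was called in any alternative, in KO or WT. RPTOR in WT was at 0.21 with only the groups compared, given with no test. The 0 of KO against WT became 1 (MTOR) with no filter and with DESeq2 before treatment and for Aza at both times. MTOR in KO at 72 h reversed to 0.0905 with the failed library. Leaving out 1 library or clone gave counts of 1 to 4 in KO and 1 to 2 in WT at 72 h, of 1 to 2 in KO and 1 to 3 in WT for the 2 Aza times, of 0 to 1 in each comparison of KO with WT, and of 0 in all others. The clone pairing changed no other count of the 10 genes. Every gene was at 10.2 CPM or more in every library, over the floor.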
